A study of Mus musculus with 12 samples.

Results

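The genes described here are 9 that are widely used to recognise endothelial cells, the lining of blood vessels: Pecam1, Eng, Vwf, Emcn, Esam, Egfl7, Ptprb, Mmrn2 and Cd34. They were found by symbol among the 54227 rows of the deposited table, and all 9 had a mean normalised count of at least 10 and so were among the 16128 genes tested. The samples were liver cells of C57Bl/6 mice that carry the Sox9EGFP transgene, a reporter whose EGFP fluorescence follows the Sox9 locus. Mice were fasted for 16 h, livers were digested to single cells, and 12000 cells per population went into lysis buffer straight from the sorter. The populations were EGFP-negative (neg), sublow (sub), low and high, with 3 libraries of each and 12 in all. Every population, neg included, carried the transgene and came from digested liver, and no treatment, age or other genotype is given. As far as the labels say, neg was gated on EGFP alone. Markers of some other liver cells were low in neg: Ptprc of leukocytes and Clec4f of Kupffer cells were at 0 in each, while C1qb of macrophages was at 431 in neg 1. Of hepatocyte genes, Alb averaged 162 in neg against 11927 in high, but Apoa1 averaged 411 in neg against 53.5 in high. Each replicate number goes with a tag in the sample descriptions that 1 library of every population carries, but the labels do not say whether the tag marks an animal or whether the 3 libraries of a population came from separate animals. Hence each p-value measures the spread between these libraries, which may be technical.

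Endothelial cells are joined by adhesion molecules, sense growth factors through receptors that dedicated phosphatases and coreceptors tune, and coat their surfaces with sialomucins. They also store and secrete proteins that act in clotting and in the matrix around vessels. In liver most of them line the sinusoids, which are fenestrated capillaries with little basement membrane, while others line the portal and central veins, the hepatic artery and the lymphatics. Several of these genes are not confined to endothelium: platelets and leukocytes carry PECAM1, megakaryocytes make von Willebrand factor, and CD34 marks haematopoietic progenitors and some fibroblasts.

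The 9 genes lie at 9 separate protein-coding loci (GENCODE M21, mouse build GRCm38, the build called mm10 in the submitters' notes). Pecam1 is at chr11:106654217-106750628 on the minus strand, and the others are on the plus strand: Eng at chr2:32646595-32682669, Vwf at chr6:125546774-125686679, Emcn at chr3:137341067-137432185, Esam at chr9:37528078-37538319, Egfl7 at chr2:26580014-26593120, Ptprb at chr10:116275523-116389535, Mmrn2 at chr14:34375465-34404287 and Cd34 at chr1:194938819-194961279. Exons of Eng overlap those of Fpgs on the opposite strand, and exons of Cd34 overlap the antisense gene Gm16897. Exons of Egfl7 overlap Agpat2 and Mir126b on the opposite strand and Gm20532 and Mir126a on the same strand. How strand was used in counting is not given in the sources used here. The partners did not follow the pattern of the endothelial genes. Fpgs was at 189.5 in high 1, 17.2 in high 2 and 194 in high 3, where Eng was at 0. Agpat2 was at no more than 1.93 in the neg libraries, where Egfl7 was highest, and Gm16897 was above 0 in low 1 alone. Gm20532, Mir126a and Mir126b were at 0 in all 12 libraries, so how reads were divided between them and Egfl7 cannot be seen from the table.

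Promoter sequence was examined because most of these genes moved together across the populations, and ETS-family factors, whose core motif is GGAA, are textbook regulators of endothelial genes. The RefSeq promoter table (GRCm38.p6, 250 bases before to 50 bases after each start) held 4 of the 9 genes by symbol, Eng, Egfl7, Emcn and Cd34, with 3 starts for Egfl7 and so 6 promoters. Pecam1, Vwf, Esam, Ptprb and Mmrn2 had no entry. For each gene 1 promoter is shown, for Egfl7 the most upstream start, all on the plus strand: chr2:32646345-32646644 (Eng), chr2:26580833-26581132 (Egfl7), chr3:137340828-137341127 (Emcn) and chr1:194938571-194938870 (Cd34). Capitals mark GGAA or its reverse complement TTCC.
Eng: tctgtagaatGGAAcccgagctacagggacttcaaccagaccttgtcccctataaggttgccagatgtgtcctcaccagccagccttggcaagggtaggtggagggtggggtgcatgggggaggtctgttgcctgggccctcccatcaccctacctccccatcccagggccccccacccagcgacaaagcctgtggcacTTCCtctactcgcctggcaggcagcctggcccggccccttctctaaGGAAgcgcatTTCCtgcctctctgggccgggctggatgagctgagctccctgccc
Egfl7: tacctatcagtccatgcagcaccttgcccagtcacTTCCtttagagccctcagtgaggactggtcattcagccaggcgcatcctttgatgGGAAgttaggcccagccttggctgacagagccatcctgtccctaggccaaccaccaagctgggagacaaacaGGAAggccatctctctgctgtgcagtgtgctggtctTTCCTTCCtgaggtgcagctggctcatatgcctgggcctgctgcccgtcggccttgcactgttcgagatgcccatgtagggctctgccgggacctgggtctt
Emcn: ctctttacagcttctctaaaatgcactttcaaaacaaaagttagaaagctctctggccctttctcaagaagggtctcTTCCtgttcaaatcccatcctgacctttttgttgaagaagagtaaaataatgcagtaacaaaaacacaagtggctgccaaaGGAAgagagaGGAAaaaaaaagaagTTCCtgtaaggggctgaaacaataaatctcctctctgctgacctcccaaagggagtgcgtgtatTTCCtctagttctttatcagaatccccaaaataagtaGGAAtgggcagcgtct
Cd34: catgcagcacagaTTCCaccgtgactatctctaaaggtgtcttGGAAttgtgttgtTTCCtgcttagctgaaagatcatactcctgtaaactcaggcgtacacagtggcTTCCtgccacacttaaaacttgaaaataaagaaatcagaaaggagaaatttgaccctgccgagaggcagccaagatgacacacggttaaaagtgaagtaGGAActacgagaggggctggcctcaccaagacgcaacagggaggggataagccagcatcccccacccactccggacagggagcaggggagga
The core letters GGAA, read on both strands, occurred in 6 of the 6 promoters, and in 96.0% of the 32851 promoters of the table, a share near that of the 6. The longer AGGAAG, which contains the core, occurred in 5 of 6, against 35.4% of all promoters, and was missing from the most downstream Egfl7 start. The 6 promoters belong to only 4 genes, 3 of them to Egfl7, so they are not independent. The difference from the share of all promoters was not tested. The letters AGATAA of GATA factors were in 0 of 6 (11.2% of all), ACAAT of SOX factors in 2 (31.0%), CACCC of KLF factors in 3 (57.5%), the E-box CANNTG in 4 (72.3%), TGANTCA of AP-1 in 0 (7.81%) and TATAAA in 0 (13.6%). Only these exact letters were searched, so a 0 does not show that the promoters lack other forms of a motif, such as those of GATA factors. These are matches of letters in a fixed window and show no binding, and their part in the gradient was not tested.

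Depth did not separate the populations. Recovered reads ran from 8775387 to 15535588 per library, with both extremes in neg, and genes above 0 from 9039 to 12687. The mitochondrial ribosomal RNAs took 2.10 to 2.78% of the summed values in neg and 4.98 to 6.00% in the other 9 libraries, so they moved with the neg gate; their part in the results was not tested. Where a population was at 0, the bound from 3 reads per library was a mean normalised count of 2.41 in low and 2.69 in high, and such bounds cover counting error only.

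Across the 4 populations the 9 genes together formed a steep gradient. Their summed normalised count averaged 100062 ± 13416 in neg and 34775 ± 7910 in sub, and then 1359.7 ± 393 in the low and 1012 ± 354 in the high gate (SD over 3 libraries). Sub thus held 34.8% of the neg sum, low 1.36% and high 1.01%. The libraries of neg and of sub did not overlap with each other or with the brighter populations, while low (906.5 to 1602) and high (780.2 to 1420) overlapped. In a sorted population, fewer endothelial cells and less RNA per endothelial cell cannot be told apart.

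**Figure D1:**
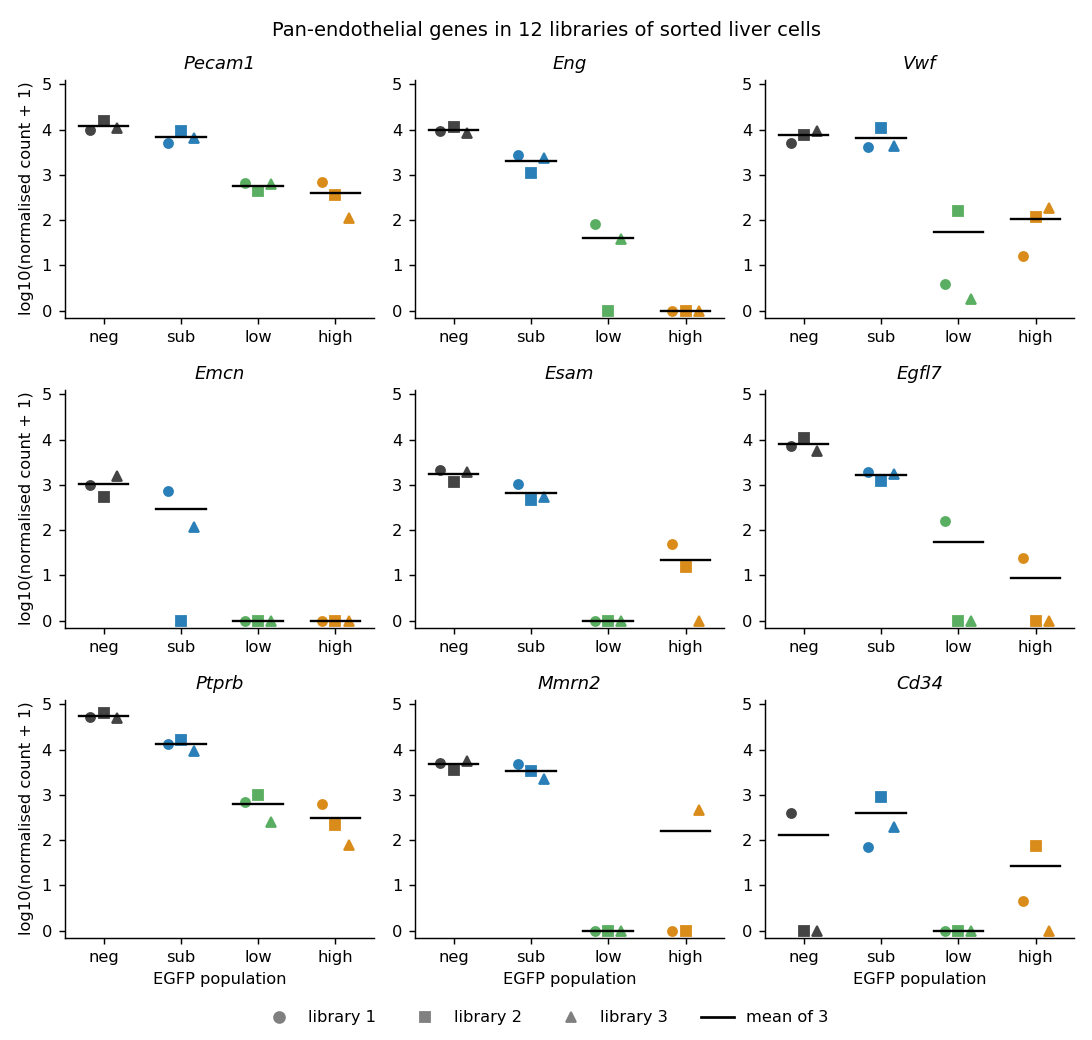
Normalised count of each gene in the 12 libraries, as log10(normalised count + 1), against EGFP population. Symbols are libraries and bars are means of 3. For every gene except Cd34 the neg and sub libraries stand above the low and high libraries, save for Emcn in sub 2, which was at 0.

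The adhesion molecules come first. Pecam1 encodes PECAM1 (CD31), a homophilic adhesion molecule of endothelial junctions. Its normalised count was 9984, 15302 and 11060.5 in neg, 5059, 9150.1 and 6398 in sub, 668, 442 and 616 in low, and 707, 359.8 and 111 in high. Each neg library exceeded each sub library and each sub library exceeded low and high, while low and high overlapped. The sub mean was 56.7% of neg, low 4.75% and high 3.24%, so Pecam1 kept the largest share in low of the 9 genes. Esam, an immunoglobulin-family molecule of the tight junctions of endothelium, was at 2159.8 in neg 1, 1152 in neg 2 and 1876 in neg 3, and at 1023, 459 and 551 in sub. It was at 0 in all 3 low libraries and at 49.3, 14.1 and 0 in high. The order was neg, sub, high, low, with no overlap between neg and sub. Low was at 0 throughout, so neg was at least 716-fold and sub at least 281-fold higher, bounds computed from 3 reads in each low library.

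The receptors and their partners were among the most abundant. Ptprb encodes VE-PTP, a receptor tyrosine phosphatase that acts on TIE2 and VE-cadherin. It was at 52001, 64963 and 48700.1 in neg, at 13539, 16196 and 9314 in sub, at 688, 971 and 252 in low, and at 621, 218 and 76.0 in high. Neg, sub and the brighter gates formed separate ranges, and low and high overlapped. Per length Ptprb was the most abundant of the 9 genes in neg, with 4142 normalised counts per kilobase of annotated exon, but in sub it stood at 976 and Pecam1 at 1103. Eng encodes endoglin, a coreceptor for BMP9 and other TGF-beta family ligands. It was at 9523, 11277 and 8311 in neg, at 2704, 1103 and 2359 in sub, at 82.4, 0 and 37.0 in low, and at 0 in every high library. Sub held 21.2% of the neg mean without overlap, and neg was at least 3604-fold higher than high.

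The sialomucins had the lowest means in neg and in sub. Emcn, which encodes endomucin, an anti-adhesive glycoprotein of capillaries and veins, was at 998, 553 and 1568 in neg and at 745, 0 and 117 in sub. It was at 0 in all low and all high libraries. The sub mean was 27.6% of neg, but sub 1 lay within the neg range and sub 2 held no read, so neg and sub overlapped; without sub 1 the share was 5.61% and without sub 2 it was 41.5%. Neg was at least 431-fold higher than low and at least 386-fold higher than high. Cd34 was at 394, 0 and 0 in neg, at 71.5, 893 and 199 in sub, at 0 in low, and at 3.46, 72.8 and 0 in high. Its mean over 3 libraries was higher in sub than in neg, at 295%, but this rests on sub 2: without that library it was 103%, and without neg 1 the neg mean was 0. Neg, sub and high overlapped. Per length it was also the scarcest, at 18.0 normalised counts per kilobase in neg against 192 for Emcn.

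The genes of secreted and matrix proteins held unequal shares of their neg means in sub, a difference between them that was not tested. Vwf encodes von Willebrand factor, which large-vessel endothelium stores for platelet adhesion. It was at 5167, 7579.9 and 9451 in neg, at 4057, 10752 and 4387 in sub, at 2.97, 158 and 0.822 in low, and at 15.6, 115 and 182 in high. Neg and sub overlapped, with sub 2 above every neg library and the sub mean at 86.5% of neg (57.1% without sub 2, 102% without sub 1), while low and high lay far beneath both and overlapped each other. Mmrn2 encodes multimerin 2, an endothelial matrix protein that binds VEGF and CD93. It was at 4996, 3622 and 5667 in neg, at 4772, 3307 and 2290.2 in sub. The low libraries held none. In high it was at 0 in high 1 and high 2 and at 466 in high 3, where 571 reads were recovered, so its high mean came from 1 library. The sub mean was 72.6% of neg and the ranges overlapped. Egfl7, which encodes a secreted factor of the vessel wall and hosts miR-126, was at 7107, 11104 and 5668 in neg and 1933, 1225 and 1723 in sub. Its sub mean was 20.4% of neg without overlap. It was above 0 in low 1 (160) and high 1 (23.4) and at 0 in the other 4 low and high libraries.

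Sub was compared with neg to ask how the dimmest EGFP-positive gate differs from EGFP-negative cells. At an adjusted p of 0.05 limma called none of the 9 genes, where 0.149% of all tested genes passed as lower in sub and 1.04% as higher; 1 of the 9 was at an unadjusted p under 0.05. That gene was Ptprb, with a log2 fold change of -2.11 ± 0.62 (SE) and an adjusted p of 0.144 in limma. In edgeR's quasi-likelihood test on the recovered reads Ptprb passed, with a log2 fold change of -2.04 and an adjusted p of 0.00178, against 0.105% of genes passing as lower. It also passed under quantile normalisation (adjusted p 0.0221) and in DESeq2 (0.0333), and it was lower in 3 of 3 sub libraries than in any neg library. The median log2 change of the 9 genes was -1.39, against 0 over all genes tested. For 5 of the 9, Pecam1, Eng, Esam, Egfl7 and Ptprb, every sub library lay below every neg library, which held for 4.99% of tested genes. For the remaining 4, Vwf changed by -0.32 ± 1.52 and Mmrn2 by -0.50 ± 2.23 on the log2 scale. Emcn was at -4.42 ± 2.59 and Cd34 at 5.0 ± 2.73 in limma, in opposite directions, with adjusted p of 0.65 and 0.604. Each was at 0 in at least 1 of the libraries compared, and edgeR gave -1.79 and 1.52. All 4 standard errors are wide, and each of these genes overlapped between neg and sub.

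The step from sub to low raises EGFP by a further gate. Here and below, counts of genes that fell or rose are of those lower or higher at an adjusted p under 0.05 in limma. Of the 9 genes 4 fell and none rose, where 0.614% of all tested genes fell in limma. The log2 fold change was -3.55 ± 0.63 for Pecam1 (SE, limma adjusted p 0.0114), -9.10 ± 1.52 for Vwf (0.00665) and -4.52 ± 0.62 for Ptprb (0.00159). The Vwf value leans on low 1 and low 3, which held under 5 reads each; edgeR gave -6.88, and the sub mean was 119 times the low mean. Mmrn2, at 0 in low, was at least 1432-fold lower than in sub (limma adjusted p 0.0194). The others were lower in low but did not pass in limma, with adjusted p of 0.0509 for Esam, 0.0938 for Egfl7, 0.105 for Eng, 0.246 for Cd34 and 0.488 for Emcn. The median log2 change of the 9 genes was -7.87, or -7.33 with the 4 genes at 0 in low set to their bounds, against 0 over all genes. Every low library lay below every sub library for 8 of the 9 genes, all but Emcn, which held for 5.99% of genes. In edgeR 6 passed as lower, Eng and Esam being added, against 0.98% of genes. The number of limma calls depended on single libraries: without sub 2 the count was 0, without sub 3 it was 1 and without low 2 it was 2, while the genes called lower over the whole table went from 99 to 31, 73 and 69. Mmrn2 was lost without any 1 of the 6 sub and low libraries (adjusted p from 0.0538 to 0.0858), Vwf without sub 2, sub 3 or low 1 (0.0508 to 0.0778), Pecam1 without sub 2, sub 3 or low 2 (0.0528 to 0.0778) and Ptprb without sub 2 (0.0611). The log2 fold changes moved little in those fits, to between -8.40 and -9.30 for Vwf, between -3.33 and -3.58 for Pecam1 and to -4.34 for Ptprb, and the low libraries of Mmrn2 were at 0 in each. A fit of only these populations called 0, with 8 of the 9 at an unadjusted p under 0.05.

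**Figure D2:**
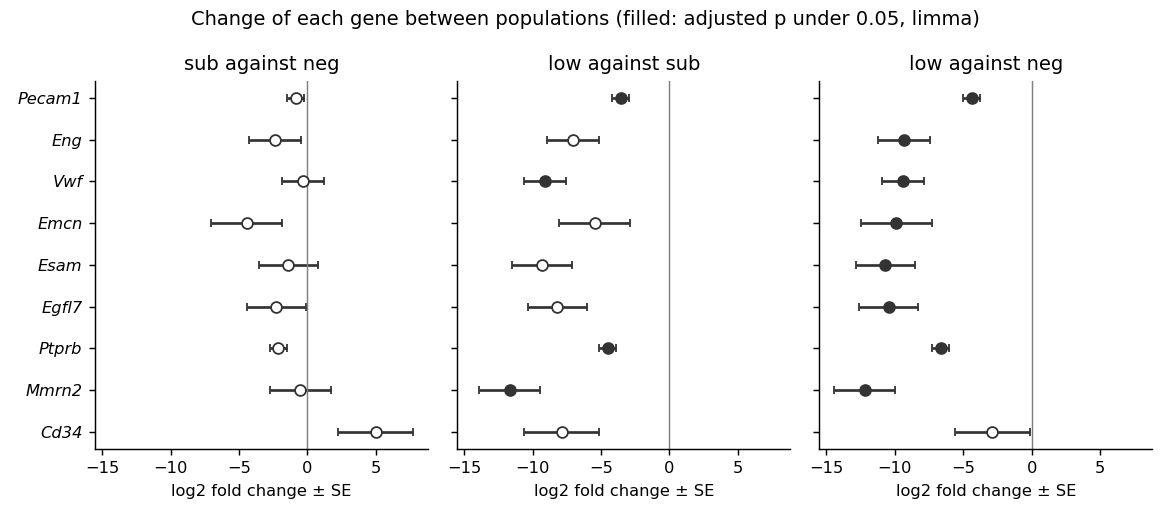
Log2 fold change with its standard error for each gene in sub against neg, low against sub and low against neg, from limma on log2(normalised count + 1) over 12 libraries; filled points had an adjusted p under 0.05. The number of filled points is 0, 4 and 8, and the size depends on the added 1 for the genes at 0 in every low library (Emcn, Esam, Mmrn2 and Cd34) and for those at or near 0 in some libraries (Eng, Egfl7, Vwf, and Emcn and Cd34 in sub against neg).

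The EGFP-low and EGFP-high gates were each compared with neg, which is shared by both comparisons. In low 8 of the 9 genes fell, all but Cd34, where 2.15% of tested genes fell in limma. Cd34 averaged 131 in neg, through neg 1 alone, and 0 in low, but did not pass (limma adjusted p 0.646). Of these 8 genes Pecam1 changed least, with a log2 fold change of -4.39 ± 0.63 (limma adjusted p 0.000198), and Ptprb had the smallest adjusted p, at -6.63 ± 0.62 (1.15e-06). It was -9.36 ± 1.90 for Eng (limma adjusted p 0.00618), -9.42 ± 1.52 for Vwf (0.000709) and -10.46 ± 2.16 for Egfl7 (0.00691). These 3 sizes depend on the added 1, since Eng was at 0 in 1 low library and Egfl7 in 2, and Vwf near 0 in 2; edgeR gave -7.77, -7.05 and -7.01, and the neg mean was 244, 137 and 149 times the low mean. For Emcn, Esam and Mmrn2 the low libraries were at 0 and the limma adjusted p was 0.0322, 0.00602 and 0.00251, with Mmrn2 at least 1973-fold lower than in neg. Every low library lay below every neg library for these 8 genes, against 8.52% of genes tested. The Emcn call was lost in 9 of 12 fits that each left out a library, namely any neg, low or high library (limma adjusted p from 0.0511 to 0.0917), and the Egfl7 call without neg 2 (0.0502). A fit of only low and neg called 4.

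In high 7 of the 9 genes fell relative to neg, where 2.25% of tested genes fell in limma. Eng was at 0 in high (limma adjusted p 0.000194), and the log2 fold change of Ptprb was -7.97 ± 0.62 (7.56e-08). For Pecam1 it was -5.28 ± 0.63 (limma adjusted p 2.27e-05), for Egfl7 -11.37 ± 2.16 (0.00335; -9.83 in edgeR) and for Vwf -6.67 ± 1.52 (0.013). Emcn (limma adjusted p 0.0321) and Mmrn2 (0.0191, log2 fold change -9.24 ± 2.23) also passed, and Esam just missed, at -7.52 ± 2.16 and 0.0526. With high 1 and high 2 at 0, the limma size for Mmrn2 exceeds the ratio of means, 30.6-fold, and the edgeR value of -4.88; for Esam the means differed 81.7-fold and edgeR gave -6.22. The high libraries lay below the neg libraries without overlap for 8 genes, Esam included, which held for 8.61% of genes. The count was 4 without neg 1, neg 2, neg 3 or high 2, because Vwf, Emcn and Mmrn2 were lost in each of these fits (limma adjusted p from 0.0654 to 0.0945). The genes called lower over the whole table went from 363 to 273, 296, 285 and 246 in the same fits. Vwf and Mmrn2 were also lost without high 1 (0.109 and 0.0954), Emcn without high 1 or high 3 (0.0966 and 0.0896), and Esam passed in 7 of these 12 fits. Median log2 changes were -9.42 for low and -7.97 for high against neg, or -9.36 and -7.97 with genes at 0 set to their bounds, beside 0 and 0.133 over all genes.

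High against sub gave 4 genes that fell, where 0.868% of tested genes fell in limma. The log2 fold change was -4.45 ± 0.63 for Pecam1 (limma adjusted p 0.00114), -5.86 ± 0.62 for Ptprb (5.69e-05) and -9.11 ± 2.16 for Egfl7 (0.0498; 209 times in means), and Eng, at 0 in high, was at least 763-fold lower (0.00623). Vwf, at -6.35 ± 1.52, had a limma adjusted p of 0.0508. The Egfl7 call was lost in 8 of 12 fits that left out a library, those without any neg or sub library, high 2 or high 3 (limma adjusted p from 0.0979 to 0.164), and a fit of only these populations called none of the 9. Between the brighter gates themselves, high against low, no gene of the 9 passed, and 0.0% of all genes did as lower in limma; 1 of the 9, Ptprb, had an unadjusted p under 0.05. For each of the 9 genes the low and high libraries overlapped or tied at 0. In edgeR 2 of the 9 passed, Eng as lower (adjusted p 0.000844, 0.143% of genes) and Mmrn2 as higher (0.00329, 0.0682% of genes), the latter on the reads of high 3. Taking low and high together against neg and sub, 8 of the 9 fell in limma, all but Cd34 (adjusted p 0.282), against 3.26% of genes, and these 8 passed in each of the 12 fits that left out a library. In the test for any difference among the 4 populations 7 passed, against 4.23% of genes; Emcn (limma adjusted p 0.0563) and Cd34 (0.376) did not.

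The share of the neg level that remained in sub was not the same for each gene. Among the 8 genes lower in sub on average it ran from 20.4% for Egfl7, 21.2% for Eng and 23.6% for Ptprb, through 27.6% for Emcn, 39.2% for Esam and 56.7% for Pecam1, to 72.6% for Mmrn2 and 86.5% for Vwf. To compare genes within a library, each was divided by Ptprb, the most abundant of the 9, a denominator chosen after the values were seen. Vwf stood at 0.0994, 0.117 and 0.194 times Ptprb in neg and at 0.300, 0.664 and 0.471 in sub, 3.50 times higher on average. Mmrn2 went from 0.0961, 0.0558 and 0.116 to 0.352, 0.204 and 0.246, 2.99 times higher. Pecam1 went from 0.192, 0.236 and 0.227 to 0.374, 0.565 and 0.687, 2.48 times higher. For these 3 genes the sub ratios lay above the neg ratios without overlap. How many of all tested genes would do so was not computed. Ptprb was lower in every sub library than in any neg library, so a gene at equal counts in neg and sub would do so too. The two-sided exact permutation p was 0.1 for each, the smallest that 3 against 3 libraries allow, and 0.267 after Benjamini-Hochberg adjustment over the 8 ratios, so this design could not reach 0.05. For Eng and Egfl7 the mean sub ratios were 0.988 and 0.951 times those in neg (exact permutation p 1 for each), but single sub libraries varied. Eng stood at 0.183, 0.174 and 0.171 in neg and at 0.200, 0.0681 and 0.253 in sub. Egfl7 stood at 0.137, 0.171 and 0.116 in neg and at 0.143, 0.0756 and 0.185 in sub. With 3 against 3 libraries the test cannot show that these ratios were unchanged. Emcn (1.13 times, exact permutation p 0.9), Esam (1.67 times, p 0.3) and Cd34 (10.8 times, p 0.2) overlapped between neg and sub. The Cd34 value rests on single libraries, with ratios of 0.00757, 0 and 0 in neg and 0.00528, 0.0551 and 0.0213 in sub. Since Ptprb was itself among the genes lowest in sub, the ratios describe unequal change and do not show which gene moved. As shares of the summed count of the 9 genes, Ptprb made up 55.1 ± 2.03% in neg and 37.2 ± 2.95% in sub, and Vwf 7.47 ± 2.45% and 17.7 ± 6.64% (SD, n = 3). The mean share of Pecam1 was 19.9 ± 4.41% in sub and that of Mmrn2 4.90 ± 1.57% in neg, and both were higher on average in sub than in neg.

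**Figure D3:**
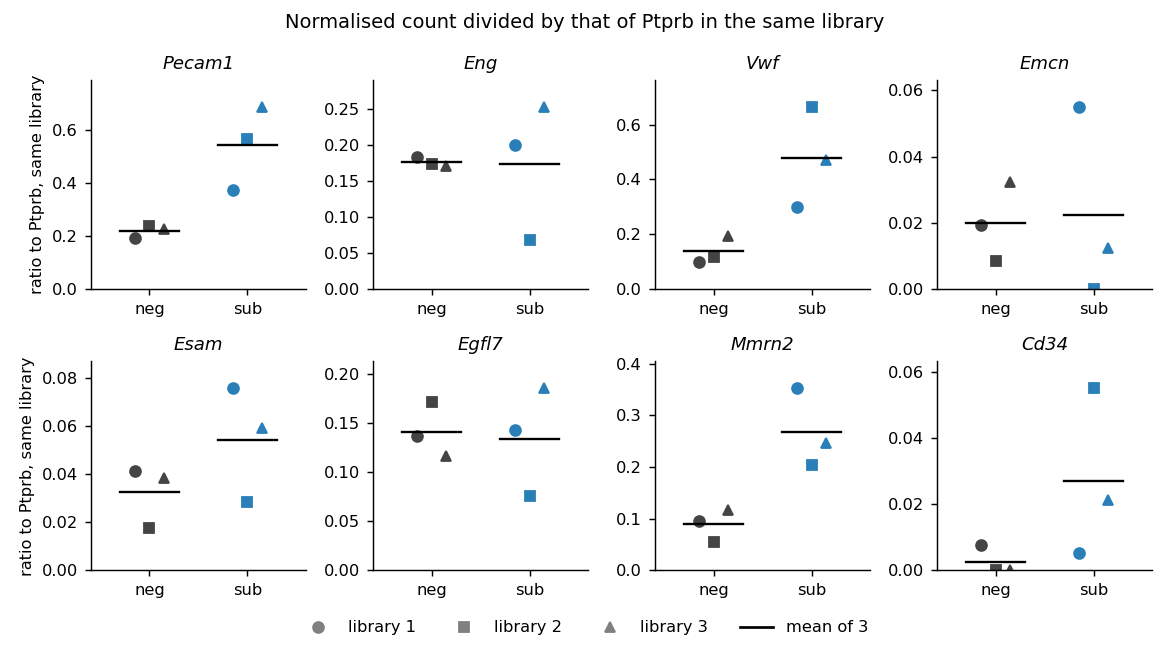
Normalised count of each of 8 genes divided by that of Ptprb in the same library, in neg and sub; symbols are libraries, bars are means of 3, and each panel has its own linear axis from 0. The sub ratios lie above the neg ratios without overlap for Pecam1, Vwf and Mmrn2, and overlap for the other 5 genes. Since Ptprb was lower in sub, a gene at equal counts in neg and sub would also stand higher in sub.

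Other endothelial genes were summarised to place these 9 among vessel types. A list of 35 further pan-endothelial genes, such as Cdh5 (VE-cadherin), had a summed count in sub of 36.9% of neg, and kept 1.77% in low and 1.49% in high. Kdr, a VEGF receptor gene, was at 28578 of the neg mean sum of 124412. Single genes of the list departed from the sum, and are named here after their values were seen: Plvap and Mcam had higher means in sub than in neg, and Cav1, with a mean of 585 in neg, was at 0 in every sub library yet averaged 214 and 455 in the brighter gates. Of its 34 tested genes 6 were higher and 28 lower in sub against neg and none passed in limma (median log2 change -1.20), 9 fell in low against sub, where 0.614% of all tested genes fell (median -6.18, or -6.75 with genes at 0 set to bounds) and 20 fell in low against neg, where 2.15% of tested genes fell (median -8.52, or -8.65); none rose. Cdh5, the defining junctional cadherin, was at 9833 ± 1983 in neg, 4319.8 ± 767 in sub, 8.16, 0 and 0 in low and 0, 50.5 and 0 in high. Liver sinusoidal markers, such as the scavenger receptors Stab1 and Mrc1, stood at 24.3% of neg in sub. Of these 15 genes 1 fell in sub against neg, where 0.149% of tested genes fell, the transcription factor gene Maf, from 24987 ± 4087 to 7036 ± 1142 (log2 fold change -1.83 ± 0.36, limma adjusted p 0.0107), and the median was -2.46; 12 fell in low against neg (median -9.27), against 2.15% of tested genes. Large-vessel markers, a list of 15 that also contains Vwf, stood at 75.2% of their neg sum in sub and kept 14.2% of it in low and 8.47% in high. Of the mean sums of 4362 in low and 2609.5 in high, Efnb2 made up 2901 and 1879, against 2121 in neg and 4943 in sub. Adgrg6 added 684 and 447, against 325 in neg and 1132 in sub, and both genes are named after their values were seen. Their higher means in sub are part of the 75.2%. By the sign of the limma fold change, 6 of the 15 genes were higher and 9 lower in sub than in neg. The list sums in neg (28507 to 35242) and sub (16528 to 32521) overlapped, with none passing in limma and a median of -0.62. Within that list the genes differed: Sele, E-selectin, was at 849.7 ± 252 in neg and 1293 ± 1197 in sub, and Rspo3, a Wnt agonist of central vein endothelium, at 4909 ± 2393 and 0, 0 and 179.5 (limma adjusted p 0.0719). Of the large-vessel list 6 fell in low against neg and 9 in high against neg, beside 2.15% and 2.25% of tested genes. The difference between these lists in the step from neg to sub was not tested.

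The summed lymphatic markers were at 186% of neg in sub and still at 53.8% and 60.1% in low and high, and 1 of 7 rose in sub, where 1.04% of tested genes rose. It was Prox1, from 372 ± 578 to 3542 ± 1958 (log2 fold change 5.33 ± 1.12, limma adjusted p 0.0185). Prox1 is also a gene of hepatocytes and biliary cells, and it was at 5956 in low and 6742 in high on average, where the 9 genes were lowest. The lymphatic list shares Lyve1 and Flt4 with the sinusoidal list and Reln with the stellate list. Stellate cell and fibroblast markers, from 21891 to 40451 in neg, 26231 to 41677 in sub, 258 to 1810 in low and 205 to 1004 in high, stayed at 109% of neg in sub; of 15 genes none passed in sub against neg (median -0.22) and 6 fell in low against sub (median -7.32, or -7.62 with bounds), against 0.614% of tested genes. The stellate sums of neg and sub overlapped, as the large-vessel sums did, whereas those of the 9 genes, the further pan-endothelial genes and the sinusoidal genes lay lower in sub without overlap and the lymphatic sums higher. Biliary markers moved oppositely, from 23.2 to 414 in neg to 24088 to 44409 in sub, 87384 to 109821 in low and 77971 to 83666 in high, and 8 of 12 rose in sub against neg, against 1.04% of tested genes. Hepatocyte markers summed to 395 to 871 in neg, 4621 to 7755 in sub, 13943 to 21609.8 in low and 17019 to 20762 in high. Alb and Ahsg, at 11927 and 5268 in high, made up most of that sum. Of 11 tested hepatocyte genes 4 rose in high against neg, where 2.44% of tested genes rose. By the sign of the limma fold change, passing or not, 6 were higher and 3 lower. Apoa1 had its highest mean in neg, and Serpina1a, Asgr1, Cps1 and Cyp2e1 were at 0 in high. The part of these other cell types in the endothelial gradient was not tested.

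Markers of blood cells, which can also express Pecam1, Vwf or Cd34, were examined. Stellate and fibroblast markers, given above, were abundant in neg and sub, and some fibroblasts express Cd34; their part in its counts was not tested. Of 12 platelet and megakaryocyte genes 10 were at 0 in all neg and 9 in all sub libraries, Pf4 and Itga2b among them; the summed list ran from 0 to 2804 in neg and 0 to 939.6 in sub, and in neg it was almost wholly Itgb3, which endothelium also expresses. Of 10 haematopoietic genes 9 were at 0 in neg and 9 in sub, Ptprc (CD45) included, and the sums ran from 0 to 869 in neg and 0 to 789 in sub. Of 10 Kupffer cell and macrophage genes 7 were at 0 in neg and 5 in sub, with sums of 0 to 474 and 0 to 587. In low and high the macrophage sums were 670.2 to 1219.7 and 519 to 1288, mostly Csf1r, and the haematopoietic sums 0 to 665 and 0 to 328. Ptprc was above 0 in low 1 (47.5), high 1 (29.4) and high 2 (326), and Pf4 was at 0 in all 12 libraries.

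**Figure D4:**
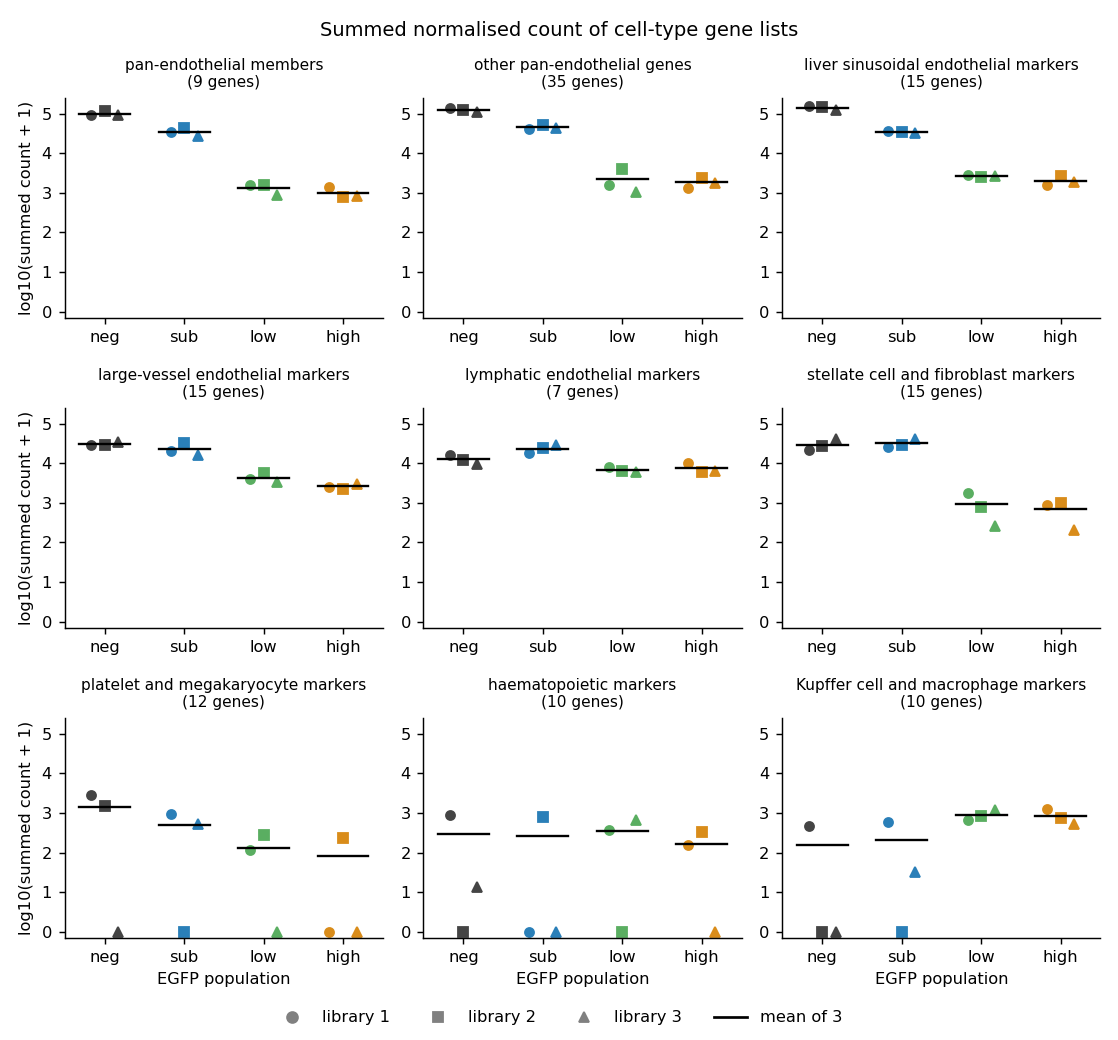
Summed normalised count of 9 gene lists in each library, as log10(sum + 1), against EGFP population; symbols are libraries and bars are means of 3. The first 3 panels descend from neg through sub to low and high, the stellate sums of neg and sub overlap and those of low and high lie beneath them, and the platelet, haematopoietic and macrophage sums stay below the endothelial sums in neg and sub.

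The genes whose profile most resembled the mean standardised profile of the 9, among those with a mean of at least 100, were Dchs1 (Pearson r 0.994), Col13a1 (0.990), Erg (0.989), Jam2 (0.989), Plvap (0.988), Gata2 (0.988), Robo4 (0.987), Serpina3f (0.987), Vsir (0.986) and Gm5578 (0.986), over 12 libraries that share their size factors and the neg to high gradient. Of these, Erg, Jam2, Plvap and Robo4 were also on the list of other pan-endothelial genes. The likeness was not particular to endothelial genes. Stellate and fibroblast genes with a mean of at least 100 had r from 0.752 to 0.981, the highest for Fbln1. Dchs1, a large protocadherin, was at 1848 ± 372 in neg, 783 ± 162 in sub and 0 in low and high, and the ETS factor gene Erg at 1467 ± 351, 1026 ± 253, 0 and 0. Plvap, the diaphragm protein of fenestrated endothelium, was at 3113 ± 1048 in neg and 3760.3 ± 1373 in sub, the only 1 of the 10 with a higher mean in sub. Among the 9 genes themselves Pecam1 and Ptprb were the closest pair (r 0.977) and Vwf was closest to Mmrn2 (0.902). Over the 36 pairs r ran from 0.197 to 0.977 with a median of 0.801. Cd34 stood apart, with r of 0.552 to its nearest neighbour, Esam, and without it the 28 pairs ran from 0.697 to 0.977.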

How the data were processed

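RNA of sorted liver cells was sequenced as total RNA in 12 libraries, 3 for each of 4 EGFP populations taken from the sample titles. The deposited values are normalised counts (a signal: reads divided by 1 size factor per library), 1 table for the series; the submitters' processing notes name Salmon, DESeq2 1.26.0 and mm10, without parameters. All values above 0 (100% per library, tolerance 0.01) came out as whole numbers of a per-library step, so reads were recovered by division, 8775387 to 15535588 per library. Genes with a mean of at least 10 (16128 of 54227) were transformed to log2(normalised count + 1), on which fold changes of evenly low genes are understated and those of genes at 0 in some libraries can exceed the ratio of means, and fitted with limma 3.58.1 (variance trend, population only, all 12 libraries, R 4.3.3), two-sided, with Benjamini-Hochberg adjustment at 0.05. The recovered reads went to edgeR 4.0.16 and DESeq2 1.42.0 as alternatives, beside other pseudocounts, filters, scalings, samples and variance models. The script was tested on simulated data. Genes named besides the 9 came from marker lists, among the 4 of a list with the smallest adjusted p in low against neg or called in sub against neg, and as the 10 nearest profiles. Defining markers of platelets, leukocytes and macrophages (Pf4, Itga2b, Itgb3, Ptprc, Csf1r) and genes that overlap the 9 were named outside that rule, after their values were seen. So were Kdr, Mcam, Cav1, Efnb2, Adgrg6, Mmrn1, Ccl21a, Pdpn, Apoa1, Serpina1a, Asgr1, Cps1 and Cyp2e1. The genes, lists and promoter motifs were chosen with earlier results of these data known. Gene positions came from GENCODE M21 and promoters from RefSeq.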

Additional observations from a re-analysis of the deposited data

How the results depend on the processing

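Leaving aside high against low, for which only counts and levels are given, of 1233 refits of the fold changes of the 9 genes 1108 kept both direction and side of the threshold, 69 lost a call, 51 gained one, and in 5, all for Cd34, the sign changed or the value became 0. Its log2 change in low against neg ran from -4.31 to 0 over fits that left out a library, and in high against neg from -1.80 to 2.79, with 0.186 at a pseudocount of 0.5. Cd34 did not pass in limma or edgeR, but DESeq2 called it in low against neg (log2 fold change -23.2, adjusted p 1.77e-10), in low against sub (-24.8, 1.91e-11), in high against low (20.8, 5.17e-08) and in low and high against neg and sub (-13.6, 6.09e-08). Cd34 was at 0 in every low library, had reads in neg 1 alone in neg (570), and 4 and 72 reads in high 1 and high 2. The DESeq2 likelihood ratio test for any difference among the 4 populations did not call Cd34 (adjusted p 0.429). The number of the 9 called in sub against neg went from 0 to 1 under quantile normalisation, edgeR and DESeq2. In low against sub it went from 4 to 7 with a pseudocount of 5, 8 in DESeq2 and 0 in a fit of only those populations, and ran from 0 to 5 when a library was left out. In high against low it was 2 in edgeR and 4 in DESeq2, in low against neg 4 in the fit of only those populations, and in high against neg 4 to 8 when a library was left out. In high against sub it was 2 without the variance trend, 0 in the fit of only those populations and 7 in DESeq2. DESeq2 called more genes in all, 1714 for sub against neg (limma 192), 1642 for low against sub (120), 697 for high against low (0), 2358 for low against neg (757), 2266 for high against neg (757), 1538 for high against sub (159) and 3013 for low and high against neg and sub (969), while fits of only the populations compared called 0, 0, 0, 203, 341 and 8. Without the variance trend 195 genes passed for low against sub and 22 for high against low, where edgeR called 34. Quantile normalisation moved the median of all genes from 0.133 to 0 in high against neg, from 0.203 to 0.0398 in high against sub and from 0.285 to 0.151 in low and high against neg and sub. The cause of these differences was not tested, except that fits of fewer libraries have less information on the spread.

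Libraries with the same replicate number did not deviate together: deviations of the 18 same-numbered pairs correlated from -0.0161 to 0.0266, with 0 pairs over 0.1. With so few libraries in each population this check cannot show that they were unpaired, and the meaning of the shared tag stays unknown. With the replicate block 8 of the 9 genes passed in low against neg, 4 in low against sub and 5 in high against sub, the added one being Vwf (limma adjusted p 0.0446). Over the whole table the genes called went from 757 to 720, from 120 to 83 and from 159 to 130 in these comparisons.

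Depth and number limit the rest. With 3 libraries a gate, a gene such as Emcn, at 745 in sub 1 and 0 in sub 2, or Cd34, at 0 in neg 2 and 394 in neg 1, cannot be placed between neighbouring gates. The labels name no molecular identifiers, so the 571 reads of Mmrn2 in high 3 are not 571 independent molecules, and each bound from 3 reads covers counting error only.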

Other observations

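In the 7-gene lymphatic list some genes had their highest mean in sub, as Cd34 did among the 9 genes through 1 library, sub 2; Mmrn1, Ccl21a and Reln are given here and were named after their values were seen. The rest of the list was mixed. Pdpn also had its highest mean in sub, 268 against 16.6 in neg (limma adjusted p 0.706). Lyve1 had nearly equal means, 633 in neg and 639 in sub, with a log2 change of -1.75 ± 2.58 (limma adjusted p 0.859). Flt4 averaged 6537 in neg and 3865 in sub, and Prox1 had its highest mean, 6742, in high. Mmrn1, the multimerin of lymphatic vessels and megakaryocytes, was at 1467, 0 and 1447 in neg, 4119.6, 6555 and 12172 in sub, 35.6, 0 and 46.0 in low and 0 in high. Its sub libraries lay above its neg libraries, but the log2 change of 5.75 ± 2.71 had a limma adjusted p of 0.514. Ccl21a, a chemokine of lymphatic endothelium, was at 37.3, 1340.4 and 283 in neg, 1461, 959 and 2477 in sub and 0 in low and high. Neg and sub overlapped there, and it fell from sub to low (limma adjusted p 0.0397). Reln, shared with stellate cells, was at 3591 ± 453 in neg and 5999.5 ± 2222 in sub (limma adjusted p 0.875). Mmrn1 and Mmrn2 encode related multimerins, and they differed in order: the mean of Mmrn2 was higher in neg and that of Mmrn1 in sub. Whether lymphatic endothelium is more frequent in sub was not tested.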
